A study of Mus musculus with 96 samples.

Results

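The genes followed here are 9 components of retinoic acid signalling, chosen by name from the 22422 genes held in the deposited count table. They are the synthetic enzyme Aldh1a2, the binding proteins Crabp1 and Crabp2, the receptors Rara, Rarb, Rarg and Rxra, and the degrading enzymes Cyp26a1 and Cyp26b1. They were measured in the neural tube of mouse embryos at E11.5 by RNA-seq of poly(A) mRNA and by ribosome profiling, in which the mRNA fragments that ribosomes shield from nuclease (footprints) are sequenced. Wild-type embryos (C3HeB) were set against heterozygous embryos labelled C3HeB/Eif3cXs-J/+, which carry a mutant allele of Eif3c, a subunit of the translation initiation complex eIF3. Each genotype had 3 pools of papain-dissociated cells, which per the labels' protocols came from neural tubes of 1 litter and were split between the assays, so that a value is an average over whole neural tubes.

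Retinoic acid is a small lipid signal made from vitamin A. Aldh1a2 carries out the last, irreversible oxidation, and in the trunk it is best known from the somites, the meninges and motor neurons. Crabp1 and Crabp2 hold retinoic acid in the cytoplasm. Crabp2 passes it to the nuclear receptors, while Crabp1 is mostly linked to its retention and turnover. The receptors RARα, RARβ and RARγ bind DNA as partners of an RXR at paired copies of a short core motif, and Cyp26 enzymes clear the ligand. In the developing spinal cord and hindbrain the signal sets Hox gene expression along the body axis and promotes neuronal differentiation.

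Rarb and Cyp26a1 are textbook direct targets of the receptors, so the letters of their response elements are shown. RefSeq promoter windows (GRCm38.p6, 250 bases before to 50 bases after a start site) were held for 8 of the 9 genes, and each was searched on both strands for 2 core motifs in the same orientation, spaced by 5 bases. A core motif was the consensus form AGGTCA, the form AGTTCA seen in both genes, the form GGTTCA seen upstream in Rarb, or the remaining mixed form, GGGTCA. Of 32851 promoter windows, 32 (0.0974%) held such a repeat, and these included Rarb and Cyp26a1 and none of the other 6 genes searched. Because the forms seen in Rarb and Cyp26a1 were among those searched, their match was fixed in advance. The share describes how often these letters occur and is not a test of either gene. The core motifs are in capitals and the spacer in lower case.
Rarb: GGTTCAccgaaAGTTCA
Cyp26a1: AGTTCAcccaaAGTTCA
The Rarb repeat lies at chr14:16575513-16575529 and reads in the direction of the gene, which is on the minus strand. Its first base is at -53 from the RefSeq start site. The GENCODE transcript used for the counts starts farther upstream, at position 16575543, so in that annotation the repeat is inside the 5′ UTR. The Cyp26a1 repeat lies at chr19:37697776-37697792, on the strand opposite to the gene, and begins at -32 along the gene. A match of letters describes the sequence and was not tested as a binding site. Spacings of 1 and 2 bases, found in 0.222% and 0.268% of promoters, occurred in none of the 8 genes.

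Coding depth was 7.20M to 13.1M counts per RNA library and 11.3M to 59.2M per footprint library, and levels are given as TMM-scaled CPM of coding counts. Eif3c itself was measured at 496 ± 22.1 CPM of RNA in wild type (SD, n = 3) and 296 ± 5.88 in the heterozygotes (SD, n = 3), with a log2 difference of -0.75 ± 0.06 (SE; adjusted p = 6.15e-04, edgeR's quasi-likelihood test). Markers of neural progenitors, neurons and motor neurons were abundant in every library. Summed RNA of 9 pan-neuronal markers was 6183 to 6449 CPM in wild type and 5102 to 5892 CPM in the mutant, groups that did not overlap. Among single genes tested, 11% had every mutant pool below every wild-type pool in RNA. Neural progenitor sums overlapped, at 3480 to 3740 CPM in wild type and 3200 to 3749 CPM in the mutant. Motor neuron sums did too, at 281 to 302 CPM and 289 to 314 CPM. The footprints of mutant pool 2 were unlike the rest. In it 2.99% of transcript footprints lay in 3′ UTRs against 1.52 to 1.76% in the other 5 footprint libraries, and leaving this pool out raised the number of genes that passed the test from 52 to 1528 in RNA and from 34 to 2333 in footprints. Mutant pool 1 had the highest blood and vessel marker sums, with erythroid RNA (11 markers) at 6381 CPM where the other 5 pools had 2704 to 3371 CPM, and endothelial RNA (7 markers) at 466 CPM where they had 271 to 320 CPM. No erythroid or endothelial marker was at 0 in all libraries.

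In wild type the retinoic acid genes spanned 3 orders of magnitude, with the 2 binding proteins far above the rest. Compared per kilobase of counted coding sequence, RNA levels ran from Crabp1 at 969 ± 8.23 CPM per kb (SD, n = 3) and Crabp2 at 443 ± 4.14 down to Rarg at 4.59 ± 0.123 and Cyp26a1 at 0.77 ± 0.036. Crabp1 stood at the 99.8th percentile of 13877 genes by RNA level per length and Crabp2 at the 99.1st. Between these extremes were Rara at 101 ± 3.19 CPM per kb, Aldh1a2 at 58.6 ± 11.1, Rarb at 54.9 ± 1.77, Cyp26b1 at 49.6 ± 6.25 and Rxra at 32.7 ± 3.35. Ranges of neighbouring genes in this order did not overlap, except for Aldh1a2 with Rarb and Rarb with Cyp26b1. Rara was thus the most abundant receptor mRNA of the 4 measured, and Cyp26b1 the main Cyp26 mRNA: the related Cyp26c1, at 0.38 CPM, was too low to be tested.

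The order of footprints was different in the middle of the list. Crabp1 (1880 ± 87.7 CPM per kb; SD, n = 3) and Crabp2 (752 ± 54.7) again led, but Aldh1a2 (87.6 ± 6.58) and Cyp26b1 (73.5 ± 3.12) were now level with or above Rara (71.5 ± 2.69). Cyp26b1 and Rara overlapped in range, and no other neighbours did. Rarb (32.6 ± 1.78), Rxra (26.2 ± 0.868), Rarg (2.61 ± 0.329) and Cyp26a1 (0.91 ± 0.0297) followed.

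**Figure D1:**
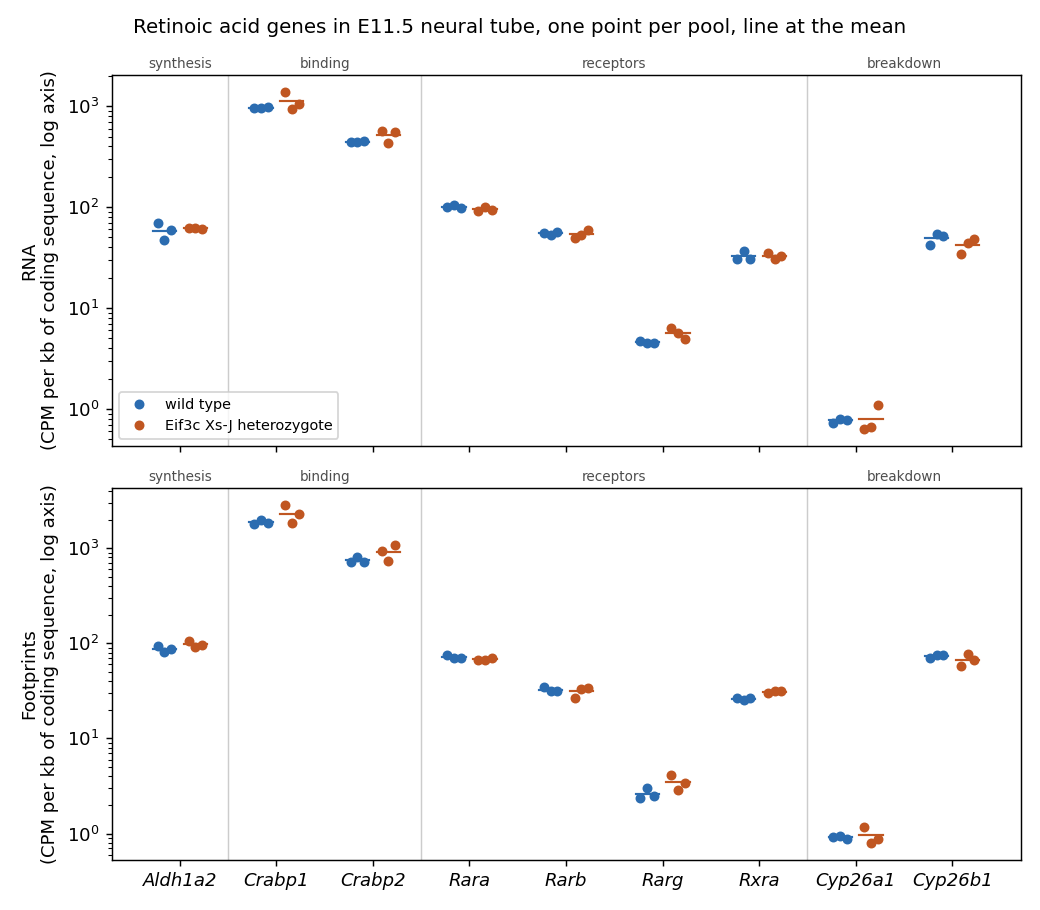
RNA (upper) and coding footprint (lower) levels of the 9 genes in CPM per kb of counted coding sequence on a log axis, one point per pool with a line at the mean of 3 pools, in wild type (blue) and Eif3c heterozygotes (orange). Crabp1 and Crabp2 lie highest and Cyp26a1 lowest in both assays, and the genotypes lie close together.

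None of the 9 genes differed between genotypes in RNA or in coding footprints at an adjusted p under 0.05. Over all genes, 0.388% passed in RNA (52 of 13406) and 0.253% in footprints (34 of 13423), so that few genes of any kind passed, and 0 of 9 is near this background. At an unadjusted p under 0.05, 1 of the 9 genes was reached in RNA (Crabp2) and 3 in footprints (Rxra, Crabp2 and Rarg). Over all genes 2351 of 13406 in RNA and 3067 of 13423 in footprints reached it by edgeR, so such values are common. Limma-voom also gave 0 of 9 in both assays. DESeq2 gave 0 of the 7 genes with an adjusted p in RNA (none was returned for Rarg and Cyp26a1) and 0 of 8 in footprints (none for Cyp26a1). In bulk tissue, fewer cells of a type and less RNA per cell cannot be told apart.

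Aldh1a2, the synthetic enzyme (chr9:71215789-71296243), had RNA at 103, 70.4 and 89.4 CPM in wild-type pools 1, 2 and 3 and at 93.5, 92.5 and 90.2 CPM in the mutant pools. Its footprints were 141, 121 and 131 CPM in wild type and 159, 138 and 143 CPM in the mutant. The RNA of the mutant pools fell within the wild-type range, and in footprints only mutant pool 1 and mutant pool 3 exceeded every wild-type pool. The fitted differences were 0.08 ± 0.11 on the log2 scale in RNA (SE; adjusted p = 0.768, edgeR) and 0.16 ± 0.08 in footprints (adjusted p = 0.282, edgeR). Their 95% intervals, -0.17 to 0.32 and -0.03 to 0.34, leave room for small changes in either assay.

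Crabp1 (chr9:54764748-54773110) was nearly identical in the wild-type pools, with RNA at 341, 342 and 346 CPM, but spread in the mutant, with 493, 331 and 369 CPM. Its footprints showed the same shape, 642, 701 and 654 CPM in wild type against 1008, 653 and 804 CPM in the mutant. Mutant pools 1 and 3 were above every wild-type pool in both assays, while mutant pool 2 was below every wild-type pool in RNA and within their range in footprints. The fitted differences were 0.21 ± 0.12 in RNA (log2, SE; adjusted p = 0.363, edgeR) and 0.30 ± 0.14 in footprints (adjusted p = 0.219, edgeR).

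Crabp2 (chr3:87948666-87953376) behaved much like Crabp1. Its RNA was 158, 157 and 160 CPM in wild type and 203, 155 and 197 CPM in the mutant. Its footprints were 259, 291 and 256 CPM in wild type and 337, 262 and 382 CPM in the mutant. Again mutant pools 1 and 3 were the highest in both assays. Mutant pool 2 was below every wild-type pool in RNA and within their range in footprints. The differences were 0.23 ± 0.09 in RNA (log2, SE; unadjusted p = 0.0259, adjusted p = 0.216, edgeR) and 0.29 ± 0.12 in footprints (unadjusted p = 0.0463, adjusted p = 0.211, edgeR).

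The pool that was left out decided whether the binding proteins passed. Without mutant pool 2 both did, in RNA (Crabp1 0.32 on the log2 scale, adjusted p = 0.0421; Crabp2 0.33, adjusted p = 0.00336, edgeR) and in footprints (Crabp1 0.44, adjusted p = 0.0195; Crabp2 0.42, adjusted p = 0.0157). In the same reduced set 11.3% of all genes passed in RNA and 17.1% in footprints, so passing there is common. Without mutant pool 1 the Crabp1 differences shrank to 0.03 in RNA and 0.13 in footprints, and those of Crabp2 were 0.15 and 0.27. Without mutant pool 3 the Crabp2 differences were 0.17 and 0.16. Over all settings tried, the adjusted p of Crabp1 ranged from 0.0421 to 0.901 in RNA and that of Crabp2 from 0.00336 to 0.495. Mutant pool 1, in which Crabp1 was highest, also had the largest footprint sum of the 15 mesenchyme, somite and meninges markers, 2134 CPM, where the remaining footprint libraries had 1184 to 1459 CPM. In RNA the same sum was 1071 CPM in mutant pool 1 and 627 to 1047 CPM in the other pools, a smaller gap. Its 9 neural crest and ganglion markers were also highest, at 268 CPM of footprints against 188 to 214 CPM and at 212 CPM of RNA against 165 to 202 CPM. None of the markers of either list was at 0 in all libraries, and their part in the Crabp1 values was not tested.

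Among the receptors, Rara (chr11:98927818-98974942), the most broadly expressed RAR, had RNA at 131, 138 and 130 CPM in wild type and 122, 132 and 122 CPM in the mutant. Its footprints were 98.5, 92.1 and 92.7 CPM in wild type and 89.1, 89 and 92.5 CPM in the mutant. The groups overlapped in both assays, with differences of -0.09 ± 0.06 (log2, SE; adjusted p = 0.492, edgeR) and -0.07 ± 0.07 (adjusted p = 0.559, edgeR). Rara had the tightest limits of the 9 genes: the 95% interval ran from -0.22 to 0.05 in RNA and from -0.21 to 0.08 in footprints.

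Rarb (chr14:16430839-16819156) is the receptor gene whose promoter holds the response element printed above and is widely used as a readout of retinoic acid activity. Its RNA was 71.4, 68.1 and 72.4 CPM in wild type and 63.8, 68.5 and 75.7 CPM in the mutant. Its footprints were 44.7, 40.7 and 40.7 CPM in wild type and 34.3, 42.7 and 44 CPM in the mutant. In RNA the mutant pools straddled the wild type. In footprints mutant pool 1 was below every wild-type pool, and mutant pools 2 and 3 were within the wild-type range. The differences were -0.03 ± 0.08 in RNA (log2, SE; adjusted p = 0.901, edgeR) and -0.06 ± 0.10 in footprints (adjusted p = 0.756, edgeR). The 95% interval in RNA was -0.20 to 0.15.

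Rarg (chr15:102234938-102257517), the RAR best known from mesoderm and skin, was scarce, with RNA at 6.07, 5.76 and 5.84 CPM in wild type and 8.13, 7.23 and 6.31 CPM in the mutant. Every mutant pool was above every wild-type pool in RNA, an arrangement that 11.2% of all genes tested showed. In footprints the values were 3.04, 3.83 and 3.19 CPM in wild type and 5.26, 3.69 and 4.34 CPM in the mutant, and the groups overlapped. The differences were 0.30 ± 0.17 in RNA (log2, SE; adjusted p = 0.377, edgeR) and 0.42 ± 0.18 in footprints (adjusted p = 0.213, edgeR). Like Crabp1, Rarg was highest in mutant pool 1 in both assays, and without this pool its differences were 0.20 in RNA (adjusted p = 0.688, edgeR) and 0.29 in footprints (adjusted p = 0.412).

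Rxra (chr2:27676440-27762957), which encodes an obligate partner of the RARs, showed no difference in RNA beyond the spread: 41.2, 49.1 and 41.4 CPM in wild type and 47.2, 41.4 and 43.7 CPM in the mutant. Its footprints were 35.9, 33.9 and 35.9 CPM in wild type and 40.8, 42.6 and 42 CPM in the mutant, so that every mutant pool exceeded every wild-type pool. In footprints 14.4% of all genes tested were arranged in this way. The footprint difference, 0.24 ± 0.07 (log2, SE), had the smallest p of the 9 genes (unadjusted p = 0.00907) and an adjusted p of 0.12 by edgeR. In RNA the difference was 0.00 ± 0.09 (adjusted p = 0.997, edgeR). Leaving out each pool in turn gave footprint differences of 0.22 to 0.26, so that no single pool carried this value. It did depend on the region counted: with the whole coding sequence it was 0.16 (unadjusted p = 0.0494, adjusted p = 0.21, edgeR).

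Of the degrading enzymes, Cyp26b1 (chr6:84571414-84593908) had RNA at 63, 80.7 and 76.3 CPM in wild type and 50.7, 64.6 and 71.3 CPM in the mutant. Its footprints were 103, 111 and 112 CPM in wild type and 84.9, 113 and 99 CPM in the mutant. Mutant pool 1 was below every other pool in both assays, and the groups overlapped. The differences were -0.25 ± 0.12 in RNA (log2, SE; adjusted p = 0.328, edgeR) and -0.13 ± 0.10 in footprints (adjusted p = 0.443, edgeR). The most negative RNA difference of the 9 genes, that of Cyp26b1, depended on mutant pool 1: without this pool the differences were -0.11 in RNA (adjusted p = 0.662, edgeR) and -0.04 in footprints (adjusted p = 0.845). Without mutant pool 2 the footprint difference was -0.25 (adjusted p = 0.0744), and without wild-type pool 2 the RNA difference was -0.17.

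Cyp26a1 (chr19:37697798-37701536), the enzyme gene with the promoter repeat, was close to the lower limit of what was tested. Its RNA was 1.05, 1.15 and 1.11 CPM in wild type and 0.903, 0.943 and 1.58 CPM in the mutant. Its footprints were 1.32, 1.34 and 1.26 CPM in wild type and 1.69, 1.15 and 1.27 CPM in the mutant. The 95% interval of the RNA difference, without adjustment, ran from -0.75 to 0.80 on the log2 scale. Changes in either direction within these bounds were thus compatible with the counts.

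**Figure D2:**
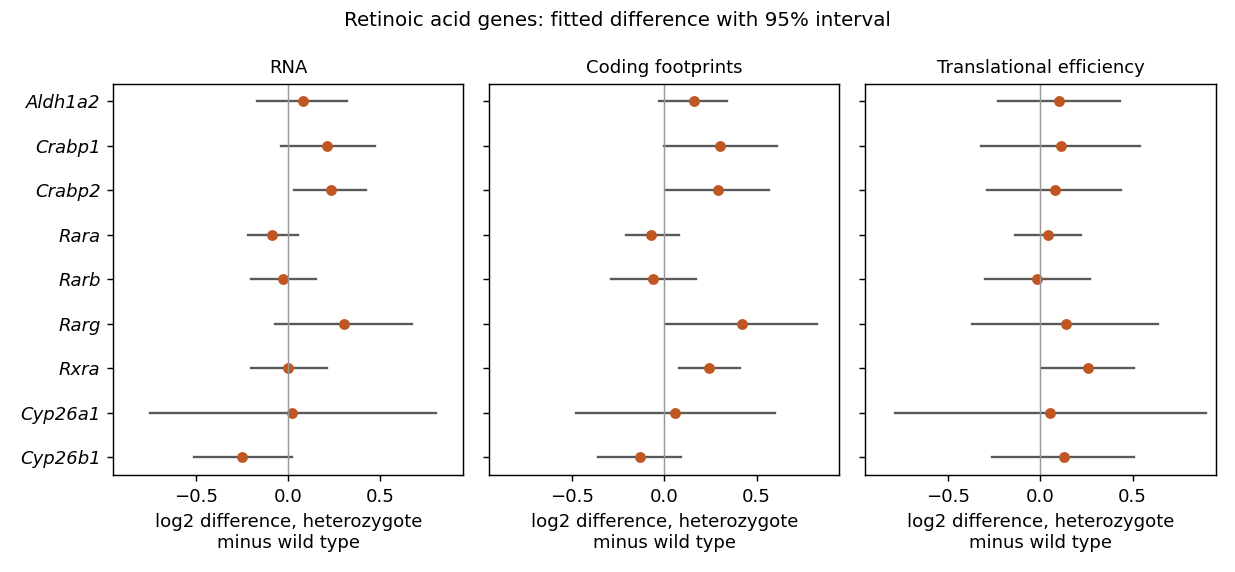
Fitted log2 differences between Eif3c heterozygotes and wild type with 95% intervals for RNA, coding footprints and translational efficiency (footprints per mRNA) of the 9 genes. The points lie between -0.25 and 0.42; unadjusted intervals exclude 0 for Crabp2 in RNA, for Crabp2, Rarg and Rxra in footprints and for Rxra in efficiency, and no gene passed after adjustment.

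Translational efficiency, the change of footprints relative to mRNA between genotypes, was tested as an interaction over all 12 libraries. None of the 9 genes passed, and neither did any other gene (0% of 13877), although 1366 genes had an unadjusted p under 0.05. With the pool as a replicate block, which uses the fact that RNA and footprints came from the same cells, 113 genes passed and again none of the 9. DESeq2 gave 20 genes and none of the 9. Rxra had the smallest p, with a difference of 0.26 ± 0.12 (log2, SE; unadjusted p = 0.0417, adjusted p = 0.492, edgeR), and an adjusted p of 0.234 with the block. Its log2 ratio of footprints to RNA was -0.19, -0.53 and -0.20 in the wild-type pools and -0.21, 0.04 and -0.06 in the mutant pools, ranges that overlapped at mutant pool 1. The other differences lay between -0.02 (Rarb) and 0.14 (Rarg). Leaving out wild-type pool 2 lowered the Rxra difference to 0.14 (adjusted p = 0.859). With the whole coding sequence counted the Rxra difference was 0.19 (adjusted p = 0.591, edgeR). Rara was bounded most closely, with a 95% interval of -0.14 to 0.22, and the interval of Rarb was -0.30 to 0.27.

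The 9 genes differed widely among themselves in how many footprints they carried per mRNA. In wild type, relative to the average gene after TMM scaling, the binding proteins, the synthetic enzyme and Cyp26b1 carried more footprints per mRNA, and the 4 receptors carried fewer. Of the 9 genes, 4 were higher at an adjusted p under 0.05 (background 35.5% of 13877 genes) and 4 were lower (background 36.3%). Most genes pass in this comparison, so the position of each gene among all genes is given beside its value.

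Crabp1 had the most footprints per mRNA, with log2 ratios of 0.91, 1.03 and 0.92 in the 3 wild-type pools and a fitted value of 1.05 ± 0.14 (SE; adjusted p = 1.07e-05, edgeR), at the 95.3rd percentile. Crabp2 followed at 0.86 ± 0.12 (adjusted p = 1.48e-05, edgeR; 90.4th percentile). Aldh1a2 was at 0.68 ± 0.11 (adjusted p = 5.11e-05, edgeR; 83.2nd percentile) and Cyp26b1 at 0.66 ± 0.13 (adjusted p = 2.77e-04, edgeR; 82.2nd percentile). Cyp26a1, at 0.33 ± 0.27, did not pass (adjusted p = 0.288, edgeR). These 5 genes encode the proteins that make, hold or destroy the ligand.

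All 4 receptors lay on the other side. Rarg was lowest at -0.74 ± 0.17 (SE; adjusted p = 0.00103, edgeR; 23rd percentile), with log2 ratios of -0.89, -0.53 and -0.78 in the wild-type pools. Rarb was at -0.65 ± 0.09 (adjusted p = 1.95e-05, edgeR; 25.7th percentile) and Rara at -0.40 ± 0.06 (adjusted p = 2.72e-05, edgeR; 33.4th percentile). Rxra was nearest to the average gene, at -0.22 ± 0.08 (adjusted p = 0.0225, edgeR; 39.7th percentile). It no longer passed without wild-type pool 2 (-0.11, adjusted p = 0.328), with no filter on low counts (adjusted p = 0.0563) or with the whole coding sequence counted (-0.10, adjusted p = 0.267). The other 7 genes that passed did so under all 15 settings. The proteins that work with the receptors showed a like pattern: of 15 co-regulators and other RXRs, 11 were lower and 0 higher, with a median of -0.51, from Kat2b at -1.89 ± 0.13 and Ncor1 at -1.22 ± 0.07 to Hdac3 at 0.07 ± 0.07. Of the 12 vitamin A and retinoid metabolism genes tested, 6 were higher and 3 lower, with a median of 0.53. Rdh11, a retinal reductase, was high at 1.31 ± 0.09, while Fabp5 (-0.71 ± 0.12), Rdh10 (-0.54 ± 0.14) and Dhrs3 (-0.34 ± 0.10) were the 3 lower genes, so the metabolic genes were not all on the side of the ligand-handling genes described above. Of the 19 target and patterning genes tested, 6 were higher and 5 lower, with a median of 0.07, and Hoxb3 was low at -2.21 ± 0.12. The median over all genes was 0.01.

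**Figure D3:**
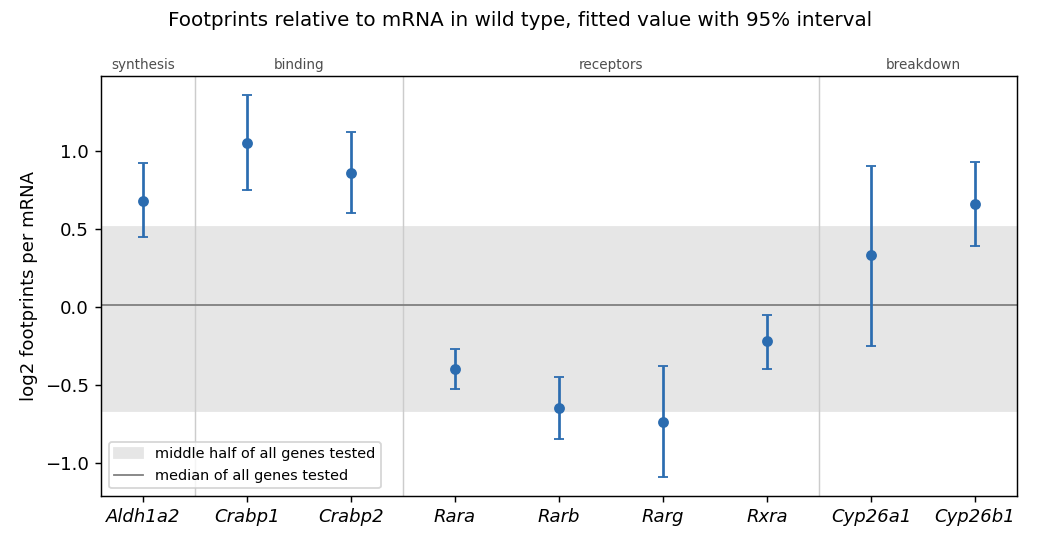
Log2 footprints per mRNA in wild type relative to the average gene, fitted value with 95% interval for each of the 9 genes, over the range between the quartiles of all genes tested (grey band, -0.67 to 0.51) and their median (line, 0.01). Crabp1, Crabp2, Aldh1a2 and Cyp26b1 lie above the band and the 4 receptors lie below the median.

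The receptors also had longer 5′ UTRs (leaders) than Aldh1a2, Crabp1 and Crabp2, with start codons upstream of the main one, and so did Cyp26b1. The counted leaders were 553 bases in Rara, 529 in Rarb, 290 in Rarg and 232 in Rxra, against 58 in Aldh1a2, 154 in Crabp1 and 175 in Crabp2, with a median of 174 over 12842 genes. Rarb held 5 upstream ATGs, Rarg 2, Rara 1 and Rxra 1, and each of these reading frames closed before the main start codon. Crabp1, Crabp2 and Aldh1a2 held none. Cyp26b1 held 2 in a leader of 295 bases and still had many footprints per mRNA, although another of its transcripts with the same coding count holds none. Over all genes 50.9% held at least 1 upstream ATG, and median log2 footprints per mRNA were 0.25 in the 6301 genes with none, -0.06 with 1, -0.36 with 2 to 4 and -0.54 in the 904 genes with 5 or more. This is a description across genes, which are not replicates. The count also depends on the transcript, as another Rxra transcript holds none and other Rara transcripts hold 2 to 5.

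Footprints were found on these leaders. Per base, wild-type footprints in the 5′ UTR were 1.10 ± 0.0609 of the coding density in Rara (SD, n = 3), 0.927 ± 0.0509 in Rarb, 1.40 ± 0.281 in Rarg and 1.85 ± 0.351 in Rxra. In RNA the same ratios were 0.421 ± 0.00883, 0.518 ± 0.0166, 0.715 ± 0.664 and 0.552 ± 0.0616, so that footprints were denser on the leader than the mRNA reads were. For Rarg the RNA ratio rests on 3, 7 and 14 leader reads. This is common: over 12409 genes the median ratio was 1.18 in footprints and 0.643 in RNA, and the 4 receptors stood between the 37.1st (Rarb) and 72.1st (Rxra) percentile in footprints. Of all footprints on the Rara transcript at least 30% ± 1.23 lay in the 5′ UTR alone, with at least 26% ± 1.17 for Rarb, counting only reads that did not also fall in the coding sequence. For Rxra 23.7% ± 3.47 of footprints touched the leader, and the lower bound for the leader alone was 10.6% ± 1.66. For Crabp1 these values were 25.2% ± 0.297 and 11.8% ± 0.84. Reads across the start codon were not counted separately.

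Among the other genes, Crabp2 had a leader density of 1.45 ± 0.11 (SD, n = 3), Aldh1a2 of 1.08 ± 0.148 and Crabp1 of 0.833 ± 0.0114. Cyp26b1 was low at 0.412 ± 0.0141, the 10.9th percentile, close to its RNA ratio of 0.367 ± 0.0838. Cyp26a1 had at most 2 leader footprints in a wild-type library. These ratios depend on the transcript. The Rara transcript with the highest count starts inside the gene, at position 98960412. The 4 others, whose coding counts were nearly as high, had leader ratios of 0.117 to 0.196 in footprints. Their RNA ratios were also low, at 0.113 to 0.152 beside 0.42 for the first, so mRNA reads were sparse on these leaders too. For Rarg the second transcript gave 0.217 in place of 1.47 in footprints and 0.277 in place of 0.629 in RNA, from pooled counts. For Rxra the transcripts ranged from 0.705 to 3.16 in footprints.

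**Figure D4:**
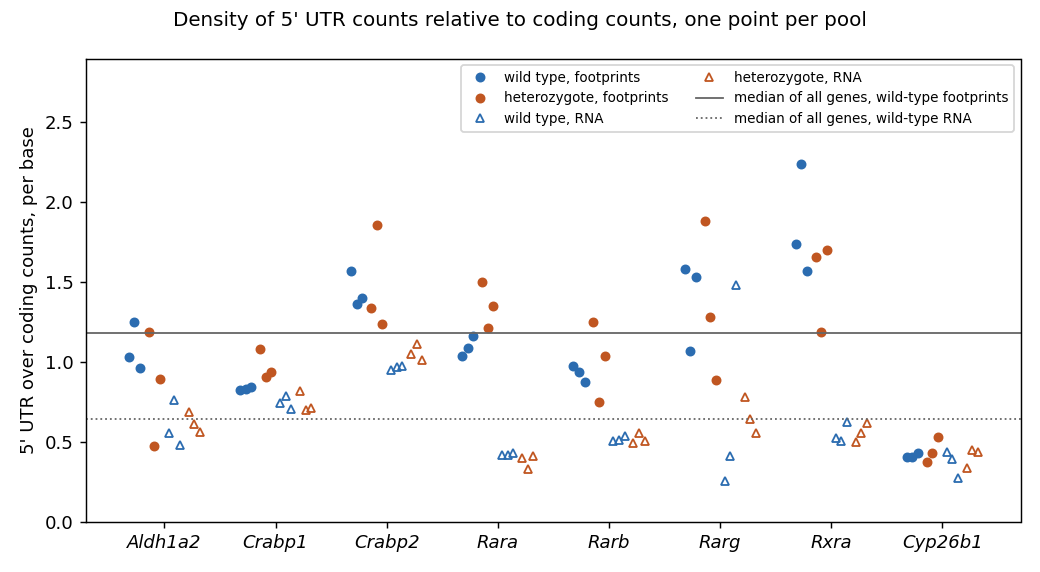
Counts per base in the 5′ UTR over counts per base in the coding sequence for 8 genes, one point per pool, in footprints (filled circles) and RNA (open triangles) of wild type (blue) and Eif3c heterozygotes (orange), with the medians of all genes in wild-type footprints (1.18, solid line) and wild-type RNA (0.643, dotted line). The receptors Rara, Rarb and Rxra have denser leaders in footprints than in RNA in every pool, while Cyp26b1 is low in both.

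The share of footprints on leaders was higher in 2 of the 3 mutant pools. Over all genes, 13.6, 13.6 and 13.5% of the transcript footprints of wild-type pools 1, 2 and 3 were in 5′ UTRs and 16.2, 13.6 and 15.7% of those of the mutant pools, so that mutant pool 2 was level with the wild type. In RNA these shares were 5.03, 5.11 and 5.01% in wild type and 5.37, 4.73 and 5.11% in mutant pools 1, 2 and 3. The comparison below used footprints only and does not take the RNA shares into account. The median log2 change of 5′ UTR relative to coding footprints was 0.22 over all genes, with quartiles of -0.02 and 0.46, and 7.77% of genes passed (964 of 12409, of which 936 were higher). This count depended on single pools: leaving out one wild-type pool at a time gave 47, 657 and 107 genes (pool 1, pool 2, pool 3), and leaving out one mutant pool gave 406, 3055 and 237. None of the 9 retinoic acid genes passed by edgeR, and none had an unadjusted p under 0.05. Rara came nearest, with ratios of 1.04, 1.09 and 1.16 in the wild-type pools and 1.5, 1.21 and 1.35 in the mutant pools. Its change of 0.30 ± 0.15 (log2, SE; adjusted p = 0.228, edgeR) was close to the median of all genes. Without mutant pool 2 it was 0.38 (adjusted p = 0.0414), and then 24.5% of all genes passed. Crabp1 had 0.22 ± 0.13, Cyp26b1 0.11 ± 0.17, Rarb 0.10 ± 0.18 and Crabp2 0.01 ± 0.16. Aldh1a2 (-0.34 ± 0.25), Rxra (-0.26 ± 0.19) and Rarg (-0.12 ± 0.33) had negative values that did not pass, and Cyp26a1 had 0 to 6 leader footprints per library, too few to read. Among the receptor partners 3 of 14 passed, all higher: Crebbp (0.63 ± 0.14, adjusted p = 0.0166), Ncoa2 (0.83 ± 0.18, adjusted p = 0.0148) and Rxrb (0.69 ± 0.18, adjusted p = 0.0336, edgeR). Crebbp and Ncoa2 encode coactivators of nuclear receptors. Hoxa4 passed with a lower share (-0.74 ± 0.21, adjusted p = 0.0422).

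In 3′ UTRs, where few footprints are found, the library that stood apart was visible in 3 of the 9 genes. Over the 22422 genes held, 810 had at least 30 3′ UTR footprints in this library and over 4 times the CPM of any other footprint library. Whether the 9 genes differ from that share was not tested. Rara had 1.99, 2.21 and 1.84 CPM of 3′ UTR footprints in wild type and 1.52, 11.6 and 2.87 CPM in mutant pools 1, 2 and 3. Rxra had 0.407 to 0.981 CPM in wild type and 10.6 CPM in mutant pool 2, and Cyp26b1 0.696 to 1.05 CPM in wild type and 10.9 CPM in mutant pool 2. Aldh1a2, Rarb, Crabp1 and Crabp2 showed no such excess in that pool. The coding footprints of Rara, Rxra and Cyp26b1 in mutant pool 2 (89, 42.6 and 113 CPM) were within 2 CPM of the nearest other pool of either genotype.

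The wider pathway was examined with lists of other genes. Of 19 genes of vitamin A uptake and retinoid metabolism, 10 were tested in RNA and 13 in footprints, and none passed in either or in efficiency by edgeR, with 2, 1 and 1 at an unadjusted p under 0.05. The other retinaldehyde dehydrogenases, Aldh1a1 (0.0463 CPM of wild-type RNA) and Aldh1a3 (0.189 CPM), were too low to be tested, which leaves Aldh1a2 as the one of this family above the filter here. Dhrs3, which reduces retinaldehyde back to retinol, came nearest. Its RNA was 40.7, 39.5 and 41.4 CPM in wild type and 26.3, 33 and 31.4 CPM in the mutant. Every mutant pool was below every wild-type pool, an arrangement that 11% of all genes tested in RNA showed. The difference was -0.43 ± 0.10 (log2, SE; adjusted p = 0.0675, edgeR). In footprints it was -0.09 ± 0.10 (adjusted p = 0.603). Dhrs3 passed in RNA by DESeq2 (adjusted p = 0.0251), with no filter (0.027) and without mutant pool 2 (-0.50, adjusted p = 0.00867). Without that pool 11.3% of all genes passed in RNA. Por, the electron donor of Cyp26 enzymes, had RNA of 135 ± 1.99 CPM in wild type (SD, n = 3) and 120 ± 1.88 in the mutant (-0.18 ± 0.06, adjusted p = 0.142). In footprints the smallest p values of this list were those of Rbp4 (0.96 ± 0.38, adjusted p = 0.176), a retinol carrier of the blood near 1 CPM, and Fabp5 (0.29 ± 0.13, adjusted p = 0.227), another protein that binds retinoic acid.

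Of 15 receptor partners, all tested, none passed in RNA, footprints or efficiency by edgeR, by limma-voom or by DESeq2 (which gave no adjusted p for Rxrg in RNA), with 1, 0 and 0 at an unadjusted p under 0.05 by edgeR. Their RNA differences were small, from -0.22 to 0.14 with a median of -0.07 against 0.01 over all genes. The coactivator Ncoa1 had the lowest value (-0.22 ± 0.10, adjusted p = 0.268, edgeR) and passed without mutant pool 2 in RNA (-0.33, adjusted p = 0.0228) and footprints (-0.29, adjusted p = 0.0441). In that reduced set 11.3% of all genes passed in RNA and 17.1% in footprints. Crebbp had -0.15 ± 0.07 in RNA (adjusted p = 0.29). In footprints Rxrb had 0.12 ± 0.07 (adjusted p = 0.373).

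Of 20 genes known to respond to retinoic acid or to pattern the neural tube with it, 18 were tested in RNA and 19 in footprints, and none passed by edgeR. At an unadjusted p under 0.05 there were 6 in RNA and 10 in footprints, where over all genes there were 2351 of 13406 and 3067 of 13423. The median footprint difference of the list was 0.22, beside 0.01 over all genes, and the median in RNA was 0.05. Of the list, Hoxb8 in RNA and Hoxd4 in footprints came nearest to the threshold, while the larger differences of Tgm2 (0.59 ± 0.27 in RNA and 0.71 ± 0.26 in footprints; adjusted p = 0.277 and 0.163, edgeR) and of Hoxb1 in footprints (0.65 ± 0.17, adjusted p = 0.0957) had wider errors. Hoxb8 had RNA of 201, 200 and 195 CPM in wild type and 129, 169 and 147 CPM in the mutant, a difference of -0.43 ± 0.09 (log2, SE; adjusted p = 0.058, edgeR). Every mutant pool was lower than every wild-type pool, as in 11% of all genes tested in RNA. Hoxb5 had -0.36 ± 0.11 in RNA (adjusted p = 0.119) and -0.08 ± 0.08 in footprints (adjusted p = 0.562). Hoxd4 showed the opposite direction, and in footprints: 66.1, 58 and 63.5 CPM in wild type and 93.2, 81.7 and 87.3 CPM in the mutant, a difference of 0.48 ± 0.08 (adjusted p = 0.0511), beside 0.08 ± 0.09 in RNA (adjusted p = 0.687). Hoxa3 had 28.6, 25.8 and 31.1 CPM of footprints in wild type and 39.6, 42.2 and 33.9 CPM in the mutant (0.43 ± 0.11, adjusted p = 0.0915), beside -0.07 ± 0.07 in RNA. Efficiency differences did not pass for Hoxd4 (0.42 ± 0.13, adjusted p = 0.43) or Hoxa3 (0.51 ± 0.13, adjusted p = 0.398). Values of this list lie near the threshold and pass in some settings. Hoxb8 passed in RNA by DESeq2 (adjusted p = 0.00175), by limma-voom (0.0499) and with the replicate block (0.0326), and Hoxd4 passed in footprints by DESeq2 (1.05e-04) and limma-voom (0.0356).

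**Figure D5:**
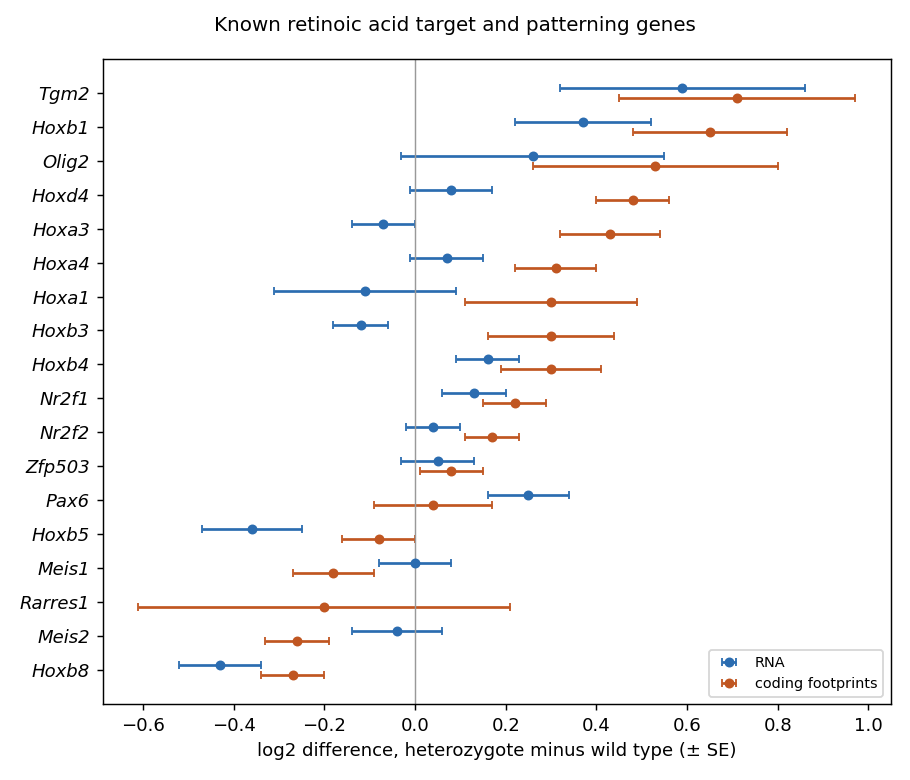
Log2 differences between Eif3c heterozygotes and wild type (± SE) in RNA (blue) and coding footprints (orange) for 18 of the 19 retinoic acid target and patterning genes tested, ordered by the footprint difference. Hoxb8 has the lowest value in both assays (-0.43 in RNA, -0.27 in footprints) and Tgm2 the highest (0.59 and 0.71), and no gene shown passed the adjusted threshold.

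Across the 12 libraries, with the mean of each assay removed, the binding proteins and Rarg moved together: Pearson's r was 0.80 between Crabp1 and Crabp2, 0.86 between Crabp1 and Rarg, and -0.80 between Crabp1 and Cyp26b1. The receptors Rara and Rarb gave 0.30. Of 10644 genes compared, those most like Crabp1 were Insc (0.98) and Tgm2 (0.97), and those most like Crabp2 were Cdv3 (0.96) and Mthfd2 (0.95). For Rarg they were Peli2 (0.96) and Plekha2 (0.95), for Rxra Stub1 (0.94) and Ctdsp1 (0.91), and for Aldh1a2 Psmb1 (0.94) and Angptl4 (0.87). For Rarb, Cyp26a1 and Cyp26b1 the best matches were Alkbh6 (0.87), Iqcc (0.88) and Ppp1r12b (0.94). These values describe 12 libraries of 6 pools, in which both libraries of a pool share cells and mutant pool 1 is an extreme point for Crabp1, so no p is given.

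The close relatives in this set were compared for shared sequence that could split reads. No stretch of 28 bases, the shortest footprint cut from the gel per the labels' protocols, was shared between the coding sequences of any pair of the 8 genes compared. Crabp1 and Crabp2 are nonetheless 73.7% identical in aligned protein sequence, and the RARs 74.5% to 78.6%.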

How the data were processed

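Per the submitters' processing notes, cutadapt, STAR, bedtools and the mm10 build were used; for versions, strand and multiply mapped reads the entry is "not given in the sources used here". Read counts by lane were deposited by the authors for every transcript, its coding sequence and its UTRs; coding counts leave out the first 15 and last 5 codons. Lanes and runs were summed into 12 libraries, without 4 truncated lane columns of mutant footprint pool 1. For each gene the transcript with the highest total was kept, with GENCODE vM21 names (121271 of 122941 identifiers matched with their version, 1522 without it). Reads across a boundary count in both parts.

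R 4.3.3 with edgeR 4.0.16 was used for quasi-likelihood tests with TMM scaling and filterByExpr (counts of at least 10, totals of at least 15), at a Benjamini-Hochberg adjusted p of 0.05 across every gene tested. Genotype was tested over 6 libraries per assay; efficiency was the genotype by assay interaction over 12, and its assay term gave wild-type footprints per mRNA. The 5′ UTR test had the library as a block and at least 10 leader counts. SE is the size of the log2 change divided by the root of F, and 95% intervals use the test's degrees of freedom. Ratios per pool used a prior of 0.5 CPM. DESeq2 1.42.0 and limma 3.58.1 were alternatives. Pools are separate samples per the labels. For genotype within 1 assay and for the 5′ UTR test, p-values measure the spread between pools. For efficiency and wild-type footprints per mRNA they measure the spread between the 12 libraries, taken as independent. Both assays of a pool used the same cells, and their deviations correlated at 0.316 to 0.521 in wild type and 0.379 to 0.644 in the mutant. The tests were checked on simulated data. Named were all 9 genes and, per list, every gene that passed in a comparison of the genotypes and the 2 of smallest p in RNA and in footprints. Of the listed genes that passed in wild-type footprints per mRNA, only some were named. Those and other genes named beside the rule (such as Tgm2, Rdh11 or Kat2b) were chosen after their values were seen. The genes and lists were chosen with earlier results of these data known.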

Additional observations from a re-analysis of the deposited data

Results flagged for a closer look

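The 3′ UTR share of transcript footprints was 2.99% in mutant pool 2, against 1.57 to 1.66% in the wild-type pools and 1.52 and 1.76% in mutant pools 1 and 3. It is named here because 3′ UTR counts are outside the coding measurement and this value is above that of the wild-type libraries. In this library 810 genes had at least 30 footprints in the 3′ UTR and over 4 times the CPM of any other footprint library, while no other footprint library had such a gene. The RNA of the same pool, with 38.8% of counts in 3′ UTRs against 35.7 to 37.5% in wild type, had none. The cause was not tested.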

How the results depend on the processing

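Of 572 values of the 9 genes under the alternatives, 3 from DESeq2 had no adjusted p. Of the other 569, 538 kept their direction and their side of the threshold, 23 changed sign, 5 newly passed and 3 no longer passed. Without each pool in turn, 0 to 2 of the 9 genes passed in RNA, 0 to 2 in footprints, 0 in efficiency, 7 to 8 in wild-type footprints per mRNA and 0 to 1 in the 5′ UTR comparison; all 5 new passes came without mutant pool 2. Sign changes were of values within about 1 SE of 0: for Cyp26a1 RNA -0.03 by limma-voom and with the whole coding sequence, for Rxra RNA -0.01 with the whole coding sequence, for Rara footprints 0.02 with all lanes summed, and for Rarb efficiency 0.01 with all coding transcripts summed. Without each pool in turn the log2 ranges of such values were, in RNA, -0.07 to 0.21 (Aldh1a2), -0.10 to 0.03 (Rarb), -0.05 to 0.09 (Rxra, 0.00 with all pools) and -0.28 to 0.19 (Cyp26a1); in footprints, -0.13 to 0.04 (Rarb) and -0.11 to 0.15 (Cyp26a1); in efficiency, -0.07 to 0.02 (Rarb) and -0.29 to 0.41 (Cyp26a1); and for the 5′ UTR, -0.06 to 0.29 (Rarb), -0.46 to 0.15 (Rarg), -0.03 to 0.21 (Cyp26b1) and -0.16 to 0.13 (Crabp2). The cause was not tested.

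Of the other retinoid genes, none passed in RNA or footprints, but in RNA 3 did by DESeq2, 3 with no filter, 1 by limma-voom, 1 with the replicate block and 0 to 6 without a pool, and in footprints 6 by DESeq2, 1 by limma-voom, 1 with no filter, 1 with the whole coding sequence and 0 to 9 without a pool. Over all genes the RNA count of 52 became 408 by DESeq2, 87 by limma-voom, 462 with no filter, 196 with the replicate block, 1 with all coding transcripts summed, 22 with the whole coding sequence and 1 to 1528 without a pool. The footprint count of 34 became 839 by DESeq2, 130 by limma-voom, 243 with no filter, 9 with all lanes summed, 22 with all coding transcripts summed, 59 with the whole coding sequence and 8 to 2333 without a pool. The 5′ UTR count of 964 became 47 to 3055 without a pool.

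Pools of the 2 genotypes share label codes (TC1, TC5 and TC6), and the labels do not say what a code marks. Deviations of same-coded pools correlated at 0.169, 0.074 and 0.169 in RNA, where 6 of 6 libraries correlated best with their own code, and at -0.074, -0.152 and 0.023 in footprints, where 0 of 6 did. Not every pair was above 0.1, so the fits reported have no such block; whether the codes mark a shared litter or day is not known. The replicate block raised the RNA count from 52 to 196 and changed no call among the 9 genes. Cyp26a1 and Rarg are limited by depth, with intervals of their RNA differences of -0.75 to 0.80 and -0.07 to 0.67.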

Other observations

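Besides Rarb and Cyp26a1, 29 genes had the repeat spaced by 5 bases in a promoter window. Of all 31, 8 were tested in RNA and 9 in footprints, with median log2 differences of -0.00 and -0.02 beside 0.01 over all genes in both assays. In RNA they ran from Gm1043 (-0.41 ± 0.18, SE; adjusted p = 0.264, edgeR) to Cfap45 (0.58 ± 0.45; adjusted p = 0.537).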
